A study of Homo sapiens with 6 samples.

Results

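A set of 60 genes of S-phase entry and DNA replication was followed in human cells depleted of SON, a splicing cofactor of nuclear speckles. They were taken by gene name (E2F factors, cyclin E, origin licensing, the replication machinery and nucleotide supply) from a gene count table of 58735 rows; all 60 were present, and all 60 were among the 16591 genes with enough counts to test. The cells were RPE-1, a human retinal pigment epithelial line, carrying GFP-tagged CETN2 to mark centrioles and PLK4, the kinase that starts centriole duplication, behind a doxycycline-inducible rtTA promoter. In 3 libraries (siSON) the cells had received an siRNA against SON and in 3 (siControl) a scramble siRNA. PLK4 was induced with 1 µg/mL doxycycline in all 6, so every value below comes from cells with PLK4 induced. The labels do not say whether replicates came from separate cultures, nor how long the cells were treated, and p-values then measure only the spread between these libraries.

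Copying the genome once per cell cycle depends on a set of genes that are switched on as cells leave G1. E2F transcription factors, released from RB-family proteins by cyclin-dependent kinases, activate these genes. The origin recognition complex, CDC6 and CDT1 load the MCM helicase onto DNA. CDC45 and the GINS complex turn it into a moving helicase. Polymerases alpha, delta and epsilon copy the strands with the sliding clamp PCNA. Cyclin E with CDK2 drives entry into S phase, and thymidylate and ribonucleotide enzymes supply the nucleotides.

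The libraries held 54572365 to 69764836 counts. The siSON libraries had SON at 68.0, 69.96 and 65.0 CPM (counts per 1000000, with edgeR's TMM scaling factors), against 295, 313 and 284 CPM in siControl, so that 22.8% remained. The log2 fold change of SON was -2.14 (standard error 0.06, adjusted p 6.78e-10 by edgeR), and p was 0.1 by an exact permutation (2-sided), the smallest that 3 against 3 libraries allow. Markers listed for a cultured line like RPE-1 were all counted, those for differentiated pigment epithelium only in part. The cultured-cell genes KRT8, KRT18, KRT7, VIM and TERT were counted in every library. So were MITF, OTX2 and BEST1 of the pigment epithelium. By contrast, TYR had 0 counts in all 6 and RPE65 had 6 to 18 counts in siControl and 0 in siSON. PMEL had 130 to 158 counts in siControl and 9 to 13 in siSON, and RLBP1 and TYRP1 had at most 7 in any library. The blood, neuron and muscle markers HBB, CD3E, RBFOX3 and MYH1 had 0 counts in all 6 libraries. Others on these lists were counted. The neuron marker SNAP25 had 306 to 440 counts in siControl and 468 to 501 in siSON. PTPRC of blood had 71 to 138 and 14 to 18, PECAM1 of endothelium 71 to 90 and 13 to 51, and DES of muscle 56 to 79 and 1 to 5. SYP, CDH5, VWF and ACTA1 had at most 30 in any library. Summed over all 3 listed genes, relative to the library total, the level in siControl and in siSON was 1.21 to 2.10 and 0.257 to 0.287 CPM for blood and 4.91 to 6.49 and 7.48 to 9.26 CPM for neurons. It was 1.276 to 1.49 and 0.366 to 0.845 CPM for endothelium and 0.957 to 1.22 and 0.0319 to 0.128 CPM for muscle. Their part in the results was not tested.

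One siSON library stood apart, for these genes and for related ones. Replicate 1 was the lowest of the 3 siSON libraries for 47 of the 60 genes (78.3%), against 37.9% of all genes tested. The median log2 ratio of the 60 genes to their siControl mean was -0.87 in siSON replicate 1, -0.52 in replicate 2 and -0.50 in replicate 3. The level of SON itself did not set that library apart. The counts of calls, the median and the values of some genes are given with and without it. For RRM2, CLSPN and TYMS, given below with it, the log2 fold changes without it were -1.36, -1.50 and -1.34. The comparisons of motifs and introns by call were made only with it. Replicate 1 was also the lowest siSON library for 25 of 25 G2 and mitosis markers, 33 of 42 other replication fork and licensing genes and 21 of 29 upstream RB-E2F genes, lists described further on. Over all genes, replicate 1 differed most from the others in both groups. Chi-square per degree of freedom was 19.6 and 23.6 in siSON and 16.6 and 21.9 in siControl, against 6.68 between replicates 2 and 3 of each group. Summed over the G2 and mitosis markers, siControl replicate 1 was the lowest control (3344 CPM, against 3557 and 3592). Summed over the 60 genes it was not (3967 CPM, against 3929 and 4090).

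Most of the replication genes were lower after SON depletion. In edgeR's quasi-likelihood test, with Benjamini-Hochberg adjustment over all 16591 genes and a threshold of 0.05, 52 of the 60 were called changed, against 71.7% of all genes tested. The direction was uneven: 41 fell (68.3%), where 36.5% of all genes tested fell, and 11 rose (18.3%), where 35.2% of all genes rose. At least a 2-fold fall was called for 21 (35.0%), against 20.5% of all genes, and at least a 2-fold rise for 1, E2F6, against 8.72%. The 3 siSON values lay wholly outside the 3 siControl values for 50 genes, 40 below and 10 above, where 75.1% of all genes tested were so separated (38.2% below, 36.9% above). The median log2 fold change (siSON over siControl) was -0.62 over the 60 genes and -0.027 over all genes tested. In bulk libraries, fewer cells in S phase and less mRNA per cell cannot be told apart.

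Of the 60 genes, 25 share exonic bases with another gene, which makes their counts uncertain. Among them are E2F5 (969 bases with C8orf59), ORC4 (430 with ACVR2A), MCM7 (392 with AP4M1) and GINS3 (558 with AC009118.2) on the other strand and POLD1 (426 with AC020909.1) on the same strand; further ones are given beside the gene.

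Leaving out siSON replicate 1 gave 51 calls, 40 lower and 11 higher, with 18 at least 2-fold lower and a median of -0.50. Over all 17080 genes then tested, 11783 were called, 5969 lower and 5814 higher. At least 2-fold lower were 3426 of them, and the median over all genes was -0.047. Among the 60 genes, those that dropped below 2-fold were POLA1, POLA2 and RFC3 (log2 fold changes -0.93, -0.98 and -0.95). Scaling by library size alone moved the median of all genes by about -0.20, to -0.22, and that of the 60 genes to -0.82. The calls were then 46 lower and 7 higher, and those over all genes 7351 lower and 4441 higher in place of 6054 and 5834.

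**Figure D1:**
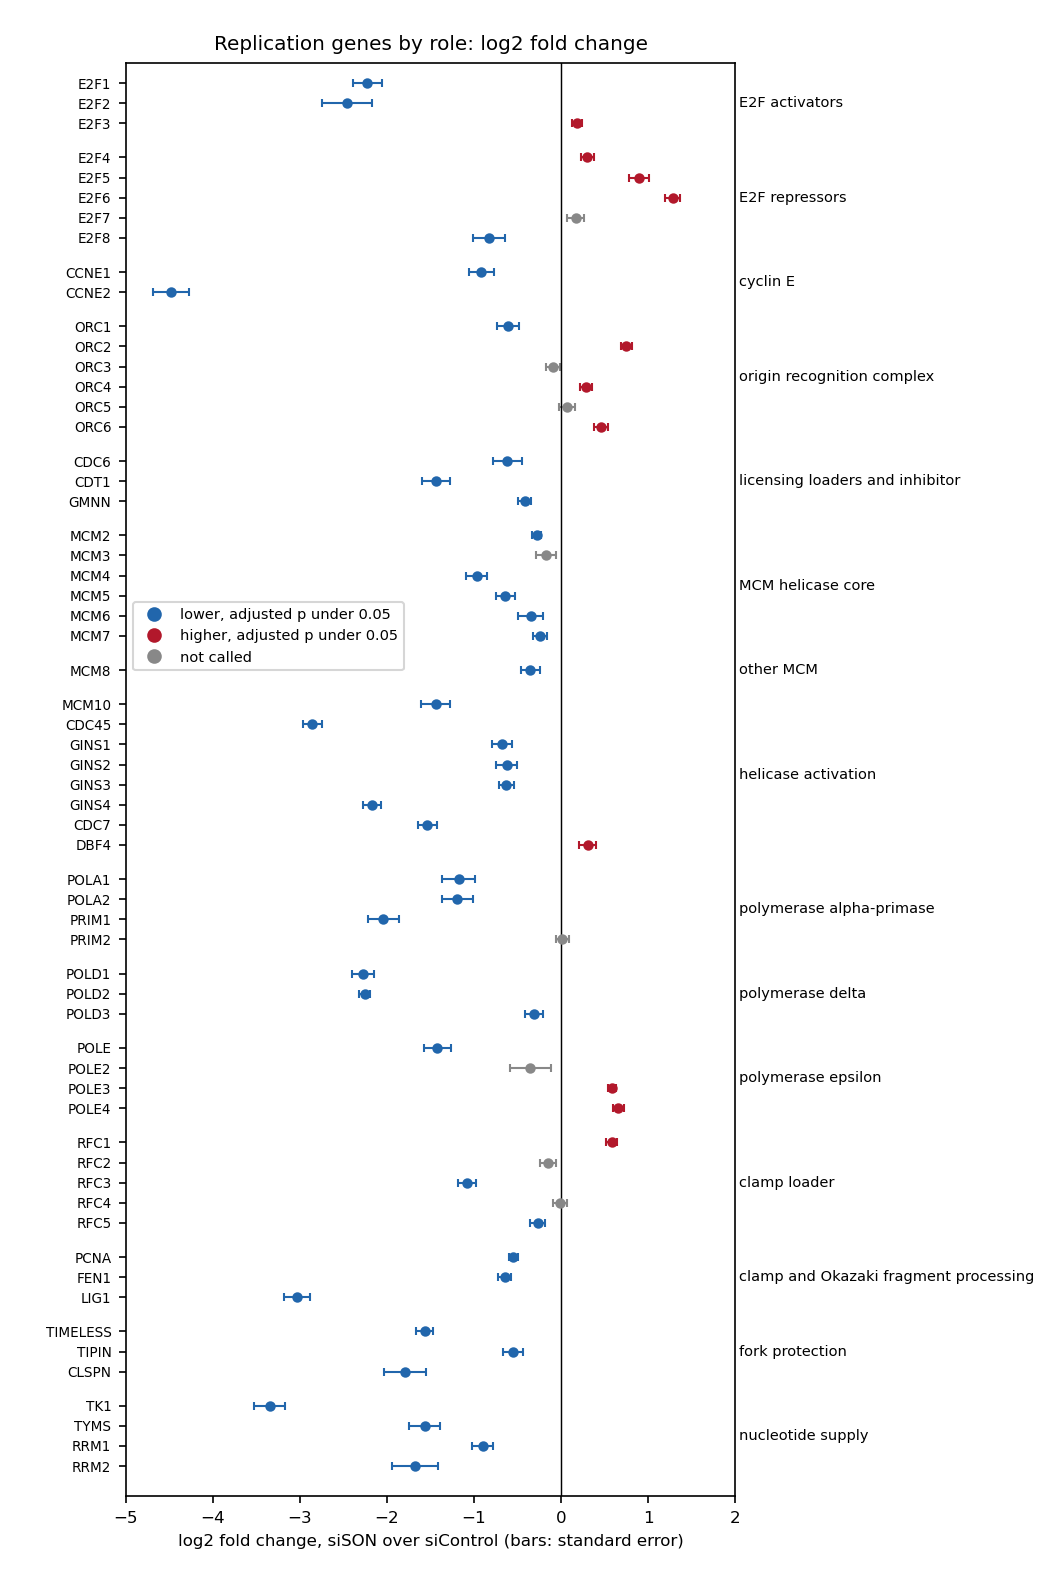
Log2 fold change of each of the 60 genes, siSON over siControl, with its standard error as a bar (edgeR, 3 libraries a group), grouped by role; blue and red points passed an adjusted p of 0.05 in the lower and higher direction, grey points did not. CCNE2 lies farthest to the left at -4.49 and E2F6 farthest to the right at 1.284.

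**Figure D2:**
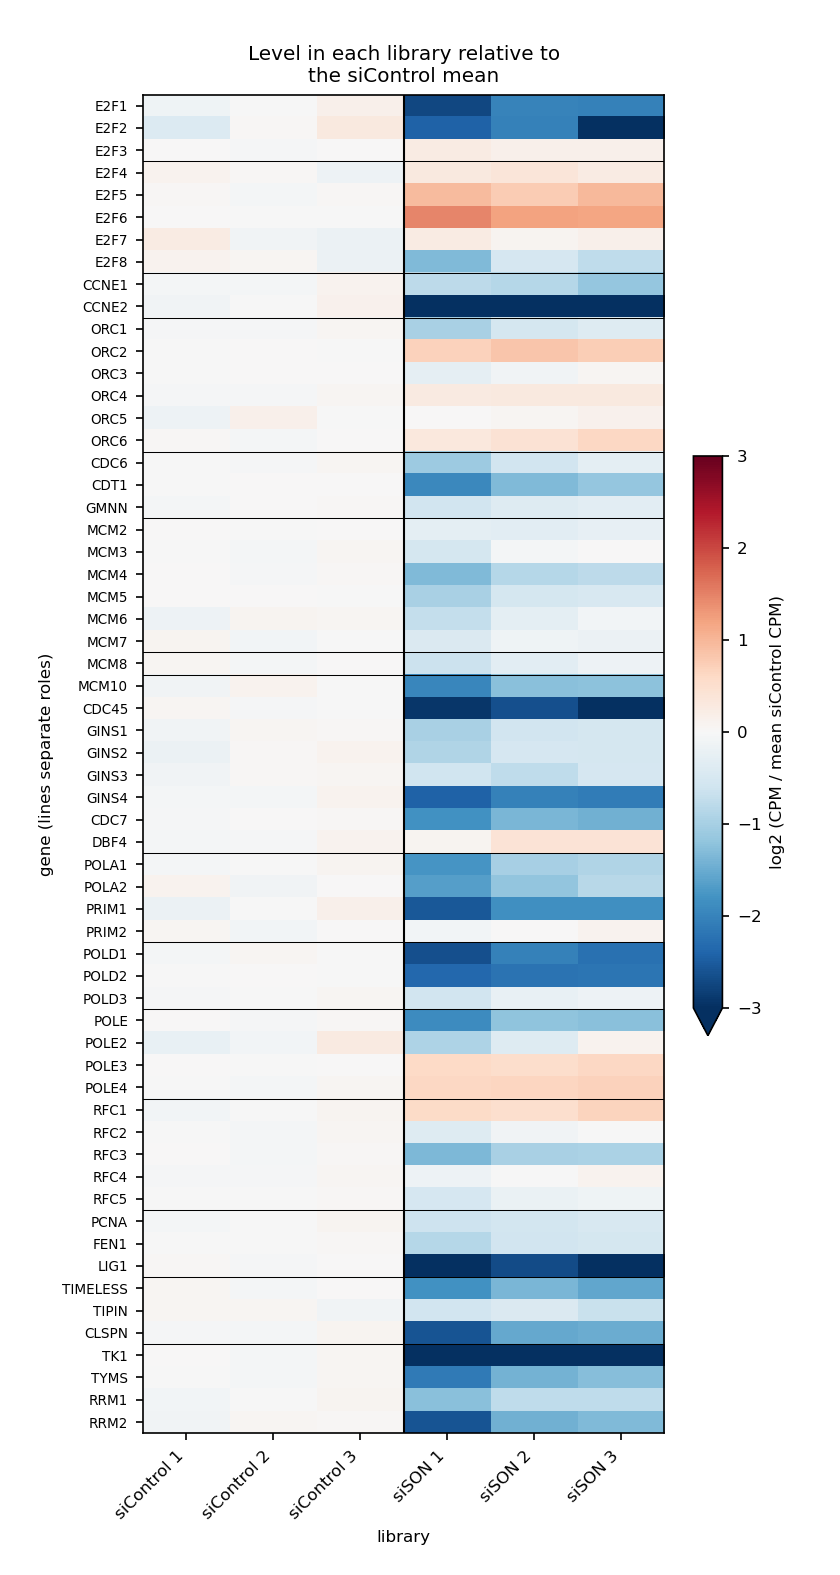
Level of each gene in each library as log2 of its CPM over the siControl mean; blue is lower and red higher, with values below -3 drawn in the darkest blue, and lines separate the roles. The siSON columns are mostly blue, and the column of replicate 1 is the darkest for most genes, with a median of -0.87 against -0.52 and -0.50.

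The E2F family split by member. Of the 3 activators, E2F1 and E2F2 fell and E2F3 was called slightly higher, though not with library size alone. Of the 5 members that mainly repress, E2F4 (not with library size alone), E2F5 and E2F6 rose, E2F8 fell and E2F7 was not called. E2F1 (ENSG00000101412; chromosome 20, 33675683 to 33686404, 7 exons, minus strand), an activator of S-phase genes that is itself an E2F target, had 24.6, 26.7 and 29.8 CPM in the siControl libraries and 4.10, 6.71 and 6.61 CPM in the siSON libraries (replicates 1 to 3 in order, here and below). The groups lay far apart, with siSON replicate 1 lowest, and the log2 fold change was -2.22 (standard error 0.17, adjusted p 6.70e-07 by edgeR), with 21.5% of the control mean left. E2F2 (ENSG00000007968; chromosome 1, 23506430 to 23531220, 7 exons, minus strand) was scarce to begin with, at 1.96, 2.67 and 3.19 CPM in the siControl libraries and 0.482, 0.640 and 0.295 CPM in the siSON libraries. Its siSON values were all below the lowest control and rested on 15 to 33 counts, and its log2 fold change was -2.46 (standard error 0.29, adjusted p 1.43e-05 by edgeR). E2F3 (ENSG00000112242; chromosome 6, 20401906 to 20493715, 7 exons, plus strand), the third activator, had 37.6, 36.6 and 37.6 CPM in the siControl libraries and 44.1, 41.6 and 41.4 CPM in the siSON libraries. Its siSON values were only just above the controls (log2 fold change 0.18, standard error 0.06, adjusted p 0.0190 by edgeR). The call was lost with library size alone (-0.014, edgeR adjusted p 0.840), with cyclic loess normalization (0.088, limma adjusted p 0.222), and with a mean count of at least 50 (0.13, edgeR adjusted p 0.0766). It was lost too without siControl replicate 1, 2 or 3 (0.16, 0.15 and 0.18, edgeR adjusted p 0.0576, 0.116 and 0.0562).

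E2F6 (ENSG00000169016; chromosome 2, 11444375 to 11466177, 7 exons, minus strand) represses through Polycomb-group partners and does not bind RB. It had 18.0, 17.8 and 17.9 CPM in the siControl libraries and 49.0, 41.1 and 40.5 CPM in the siSON libraries. Every siSON library was more than 2-fold above every control, and the log2 fold change was 1.284 (standard error 0.08, adjusted p 1.34e-07 by edgeR), the only 2-fold rise among the 60 genes. E2F5, which acts with the RB relatives p107 and p130, went from 4.13 ± 0.154 CPM in siControl to 7.67 ± 0.604 CPM in siSON (SD, n = 3), a log2 fold change of 0.89 (standard error 0.11, adjusted p 2.64e-05 by edgeR). E2F4, which binds the same partners and is the main E2F of quiescent cells, had a log2 fold change of 0.30 (standard error 0.08, adjusted p 0.00361 by edgeR) that was lost with library size alone (0.11, edgeR adjusted p 0.231) and with cyclic loess (0.18, limma adjusted p 0.0569). The atypical repressors E2F7 and E2F8, which bind DNA without a DP partner, differed from each other. E2F8 (ENSG00000129173; chromosome 11, 19224063 to 19241620, 13 exons, minus strand) had 8.30, 7.97 and 6.80 CPM in the siControl libraries and 3.05, 5.45 and 4.56 CPM in the siSON libraries, all siSON values below the controls and replicate 1 lowest (log2 fold change -0.82, standard error 0.18, adjusted p 0.00195 by edgeR, and -0.55 with cyclic loess). E2F7 went from 158 ± 24.6 CPM in siControl to 177 ± 9.68 CPM in siSON (SD, n = 3) with overlapping groups (log2 fold change 0.17, standard error 0.10, adjusted p 0.141 by edgeR), and was called higher without siControl replicate 1 (0.28, edgeR adjusted p 0.00217) and with no filter on low counts (0.17, edgeR adjusted p 0.0139), but not without any other single library.

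Within each library, the E2F1 count was set against the E2F6 count, a ratio that does not depend on how libraries are scaled. It was 1.37, 1.497 and 1.67 in the siControl libraries and 0.0837, 0.163 and 0.163 in the siSON libraries. All siSON ratios lay below all siControl ratios. For this ratio, and for each of the 5 other ratios of paired genes given below, p was 0.1 (exact permutation, 2-sided), its smallest possible value, and 0.1 after Benjamini-Hochberg adjustment over the 6. The 6 pairs were chosen after the values were seen.

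E2F factors recognise short GC-rich motifs close to transcription starts, so the promoters of the 60 genes were searched for TTTCGCGC, TTTGGCGC, TTTCCCGC and TTTGCCGC on both strands. RefSeq promoter windows (GRCh38.p14, 250 bases before to 50 after a start) were found for 53 of the 60. A gene was counted where any of its windows held a motif. No window was found for E2F5, which rose, or for E2F8, CCNE2, MCM4, MCM5, GINS4 and POLD3, which fell. The motif comparisons thus leave out CCNE2, the largest fall of the 60. A motif was found for 27 of 53 genes (50.9%), against 708 of 10866 tested genes with a window (6.52%) and 1090 of all 27305 genes with one (3.99%). By call, the motif was found for 22 of 35 genes that fell (62.9%), 2 of 10 that rose (E2F3 and POLE4) and 3 of 8 not called (ORC3, MCM3 and POLE2). Among the genes that fell at least 2-fold it was found for 11 of 19 (57.9%), a share no higher than among all that fell. Over all tested genes the shares by call were close to each other, at 7.31% of those lower, 6.31% of those higher, 5.66% of those not called and 6.40% of those at least 2-fold lower. The 27 genes with a motif had a median log2 fold change of -0.63 and the 26 without one -0.21; over all tested genes the medians were -0.099 for 711 rows with a motif and 0.021 for 10163 without. With the shorter string GGCGC, which only TTTGGCGC of the 4 motifs contains, the share was 92.5% (49 of 53), against 79.7% of tested genes. A match describes letters in the window and was not tested as a binding site.

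The RefSeq stretches below (GRCh38.p14) run 5′ to 3′ on the gene's strand, with motif matches in capitals. They end at the base before the RefSeq start, except for LIG1 and POLE4, where only the match with 11 bases on each side is given because GENCODE 29 places it inside an annotated exon of the gene. The last 19, 23 and 29 bases of the E2F1, POLE and TK1 stretches also lie in such an exon. They were chosen after the values were seen, to set genes that fell with a match (E2F1, LIG1, POLE, MCM6) beside a gene that rose with one (POLE4) and one that fell with none of the 4 motifs in its windows (TK1).
E2F1, chr20:33686386-33686485, minus strand: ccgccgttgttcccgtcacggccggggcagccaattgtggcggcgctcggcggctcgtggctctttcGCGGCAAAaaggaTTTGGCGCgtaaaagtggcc
LIG1, chr19:48170440-48170469, minus strand: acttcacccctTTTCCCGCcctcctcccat
POLE, chr12:132687343-132687442, minus strand: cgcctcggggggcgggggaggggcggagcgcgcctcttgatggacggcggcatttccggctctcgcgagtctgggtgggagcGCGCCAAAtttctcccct
MCM6, chr2:135876444-135876615, minus strand: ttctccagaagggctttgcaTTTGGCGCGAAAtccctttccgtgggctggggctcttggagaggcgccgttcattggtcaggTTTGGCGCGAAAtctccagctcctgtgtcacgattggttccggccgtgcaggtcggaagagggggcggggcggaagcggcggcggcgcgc
POLE4, chr2:74958601-74958630, plus strand: ctccagcccgcGCGGGAAAgggcctgcgcc
TK1, chr17:78187205-78187344, minus strand: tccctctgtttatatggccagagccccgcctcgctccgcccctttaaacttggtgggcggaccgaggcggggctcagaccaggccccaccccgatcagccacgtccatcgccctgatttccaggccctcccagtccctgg
In E2F1 the TTTGCCGC match (minus strand, bases 33 to 26 before the start) and the TTTGGCGC match (plus strand, bases 20 to 13) lie close together. MCM6 holds the same pair of overlapping matches at 2 places, TTTGGCGC on the plus strand and TTTCGCGC on the minus strand, at bases 152 to 141 and 90 to 79 before the start. MCM6 had the smallest fall of the 4 falling genes shown, near the threshold (adjusted p 0.0465 by edgeR) and not called under 5 of 14 alternatives. Whether the number of matches bears on the fold change was not tested.

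Both cyclin E genes fell, CCNE2 by far the more. Cyclin E binds CDK2 and drives the G1 to S transition. CCNE2 (ENSG00000175305; chromosome 8, 94879770 to 94896678, 12 exons, minus strand) had 21.7, 23.1 and 25.4 CPM in the siControl libraries and 0.586, 1.22 and 1.36 CPM in the siSON libraries. The siSON libraries were all far below the controls, replicate 1 lowest, with a log2 fold change of -4.49 (standard error 0.21, adjusted p 1.86e-08 by edgeR) and 4.51% of the control mean left, the largest fall of the 60 genes. CCNE2 shares 1629 exonic bases with INTS8 on the other strand, and the strand setting of the counts is not given in the sources used here. CCNE1 went from 5.05 ± 0.312 CPM in siControl to 2.67 ± 0.362 CPM in siSON (SD, n = 3), at a log2 fold change of -0.91 (standard error 0.14, adjusted p 0.000136 by edgeR), and -0.57 with cyclic loess. The CCNE2 to CCNE1 count ratio was 4.45, 4.75 and 4.70 in the siControl libraries and 0.199, 0.434 and 0.6 in the siSON libraries, so that the more counted of the pair in controls was the less counted after SON depletion in all 3 libraries.

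Among the 6 subunits of the origin recognition complex, which marks replication origins, ORC1 fell, ORC2, ORC4 and ORC6 rose, and ORC3 and ORC5 were not called. ORC1 (ENSG00000085840; chromosome 1, 52372829 to 52404459, 17 exons, minus strand), the subunit whose level rises and falls with the cell cycle, had 19.8, 19.8 and 21.0 CPM in the siControl libraries and 10.3, 14.0 and 15.5 CPM in the siSON libraries. All siSON values were below the controls, replicate 1 lowest (log2 fold change -0.61, standard error 0.13, adjusted p 0.00128 by edgeR). ORC2 (ENSG00000115942; chromosome 2, 200908973 to 200963680, 18 exons, minus strand) had 30.4, 31.2 and 30.8 CPM in the siControl libraries and 49.5, 54.7 and 51.1 CPM in the siSON libraries, every siSON library above every control (log2 fold change 0.75, standard error 0.06, adjusted p 1.07e-06 by edgeR). ORC6 had a log2 fold change of 0.46 (standard error 0.08, adjusted p 0.000307 by edgeR), or 0.27 with library size alone. ORC4 had one of 0.29 (standard error 0.07, adjusted p 0.00214 by edgeR), and its call was lost with library size alone (0.091, edgeR adjusted p 0.238). For ORC3 the log2 fold change was -0.095 (standard error 0.08, adjusted p 0.311 by edgeR) and for ORC5 0.071 (standard error 0.09, adjusted p 0.509 by edgeR), with overlapping groups in both. Library size alone gave ORC3 a call (-0.29, edgeR adjusted p 0.00912), while without siSON replicate 1 it was -0.0047 (edgeR adjusted p 0.956).

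The 3 genes that control helicase loading all fell. CDT1 (ENSG00000167513; chromosome 16, 88803213 to 88809258, 10 exons, plus strand), which brings the MCM ring to the origin, had 68.4, 69.4 and 69.1 CPM in the siControl libraries and 18.0, 27.4 and 31.1 CPM in the siSON libraries. Control values were within a narrow range, the siSON values were all below it and replicate 1 was lowest, with a log2 fold change of -1.44 (standard error 0.16, adjusted p 3.95e-05 by edgeR). CDC6, the ATPase that works beside CDT1, went from 64.0 ± 2.003 CPM in siControl to 41.7 ± 11.2 CPM in siSON (SD, n = 3). The log2 fold change was -0.62 (standard error 0.16, adjusted p 0.00792 by edgeR), and -0.41 (edgeR adjusted p 0.000406) without siSON replicate 1. Geminin (GMNN), the inhibitor of CDT1, went from 43.4 ± 1.29 CPM in siControl to 32.5 ± 2.86 CPM in siSON (SD, n = 3), at a log2 fold change of -0.42 (standard error 0.08, adjusted p 0.000428 by edgeR).

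The MCM2 to MCM7 genes encode the 6 subunits of the replicative helicase ring. Of these, 5 fell and MCM3 was not called, and none fell 2-fold in this fit. MCM4 (ENSG00000104738; chromosome 8, 47960185 to 47978160, 16 exons, plus strand) had 205, 198 and 210.4 CPM in the siControl libraries and 82.0, 113 and 119 CPM in the siSON libraries. It had the largest fall of the 6, with no overlap and replicate 1 lowest (log2 fold change -0.97, standard error 0.12, adjusted p 5.03e-05 by edgeR). MCM5 followed at -0.64 (standard error 0.11, adjusted p 0.000333 by edgeR). MCM2 had a log2 fold change of -0.28 (standard error 0.05, adjusted p 0.000640 by edgeR), but -0.48 with library size alone and -0.47 with cyclic loess. It shares 1113 exonic bases with the antisense gene AC023593.1. The falls of MCM6 and MCM7 were smaller without siSON replicate 1. MCM7 had a log2 fold change of -0.24 (standard error 0.08, adjusted p 0.0159 by edgeR), -0.14 (edgeR adjusted p 0.0455) without that library, -0.44 with library size alone and -0.52 with cyclic loess. MCM6 was at the edge of the threshold, with overlapping groups and a log2 fold change of -0.35 (standard error 0.14, adjusted p 0.0465 by edgeR). It was -0.18 (edgeR adjusted p 0.143) without siSON replicate 1 and -0.55 with library size alone. The call was also lost without siSON replicate 2 (-0.36, edgeR adjusted p 0.0876), without siControl replicate 2 or 3 (-0.32 and -0.33, edgeR adjusted p 0.111 and 0.108) and with cyclic loess (-0.24, limma adjusted p 0.145). MCM3 went from 63.3 ± 2.23 CPM in siControl to 56.2 ± 10.7 CPM in siSON (SD, n = 3), at a log2 fold change of -0.17 (standard error 0.12, adjusted p 0.217 by edgeR). It was called lower with library size alone (-0.37, edgeR adjusted p 0.0179), with cyclic loess (-0.35, limma adjusted p 0.0167) and with no filter on low counts (-0.17, edgeR adjusted p 0.0427). Without siSON replicate 1 it was -0.0086 (edgeR adjusted p 0.906).

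Per kilobase of annotated exon, the control levels of the ring subunits were 34.4 ± 1.74 CPM per kb for MCM7, 29.4 ± 0.859 for MCM4, 17.3 ± 0.612 for MCM3, 15.3 ± 0.218 for MCM2, 8.65 ± 0.116 for MCM5 and 4.13 ± 0.373 for MCM6 (SD, n = 3). On the same scale MCM4 was at 15.02 ± 2.87 CPM per kb in siSON (SD, n = 3), beside 15.4 ± 2.93 for MCM3 and 12.6 ± 0.297 for MCM2, so that the second-highest subunit in controls was within the spread of the next ones after SON depletion. The exon length counts every annotated transcript, whichever is expressed. MCM8 (ENSG00000125885; chromosome 20, 5950652 to 5998977, 19 exons, plus strand), a relative that acts in recombination and not in the ring, had 45.3, 41.5 and 43.8 CPM in the siControl libraries and 27.9, 35.0 and 39.5 CPM in the siSON libraries. Its siSON values were below the controls (log2 fold change -0.35, standard error 0.11, adjusted p 0.0128 by edgeR), with a log2 fold change of -0.21 (edgeR adjusted p 0.0214) without siSON replicate 1 and -0.55 with library size alone.

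Of the 8 genes of helicase activation, 7 fell, 4 of them at least 2-fold, and DBF4 alone was called higher. CDC45 (ENSG00000093009; chromosome 22, 19479459 to 19520612, 20 exons, plus strand), which joins MCM and GINS in the active helicase, had 35.5, 33.3 and 34.2 CPM in the siControl libraries and 4.57, 5.53 and 4.09 CPM in the siSON libraries. The control values were close together and all siSON values were several-fold lower, with replicate 3 lowest. The log2 fold change was -2.86 (standard error 0.11, adjusted p 3.37e-09 by edgeR), leaving 13.8% of the control mean. GINS4 (ENSG00000147536; chromosome 8, 41529206 to 41545046, 8 exons, plus strand) had 50.5, 50.03 and 56.4 CPM in the siControl libraries and 9.79, 12.8 and 12.2 CPM in the siSON libraries. Its groups were as clearly apart (log2 fold change -2.18, standard error 0.10, adjusted p 1.36e-08 by edgeR), and it shares 1159 exonic bases with AC009630.2 on the other strand. The other subunits of the 4-part GINS complex had smaller falls of similar size, with log2 fold changes of -0.68 (standard error 0.12, adjusted p 0.000274 by edgeR) for GINS1, -0.63 (standard error 0.12, adjusted p 0.000602 by edgeR) for GINS2 and -0.63 (standard error 0.08, adjusted p 4.11e-05 by edgeR) for GINS3. MCM10 (ENSG00000065328; chromosome 10, 13161554 to 13211104, 20 exons, plus strand), which helps the helicase start, had 25.9, 30.01 and 27.9 CPM in the siControl libraries and 7.22, 11.8 and 11.9 CPM in the siSON libraries. All siSON values were below the controls, replicate 1 lowest (log2 fold change -1.44, standard error 0.17, adjusted p 2.38e-05 by edgeR).

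CDC7 and DBF4 encode the kinase and the activating subunit of the enzyme that phosphorylates MCM to fire origins. CDC7 (ENSG00000097046; chromosome 1, 91500893 to 91525764, 12 exons, plus strand) had 25.3, 26.3 and 26.5 CPM in the siControl libraries and 7.39, 10.04 and 9.58 CPM in the siSON libraries, a fall in every siSON library with a log2 fold change of -1.54 (standard error 0.11, adjusted p 2.69e-07 by edgeR). DBF4 (ENSG00000006634; chromosome 7, 87876216 to 87909541, 12 exons, plus strand) had 29.1, 29.3 and 32.3 CPM in the siControl libraries and 31.8, 40.1 and 40.3 CPM in the siSON libraries. Its siSON replicate 1 overlapped the controls, and the log2 fold change was 0.31 (standard error 0.10, adjusted p 0.0133 by edgeR). It was not called with library size alone (0.11, edgeR adjusted p 0.342) or without siControl replicate 1, siControl replicate 2 or siSON replicate 2 (0.25, 0.26 and 0.27, edgeR adjusted p 0.0603, 0.0678 and 0.0535). The CDC7 to DBF4 count ratio was 0.870, 0.897 and 0.821 in the siControl libraries and 0.232, 0.250 and 0.238 in the siSON libraries, with no overlap.

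**Figure D3:**
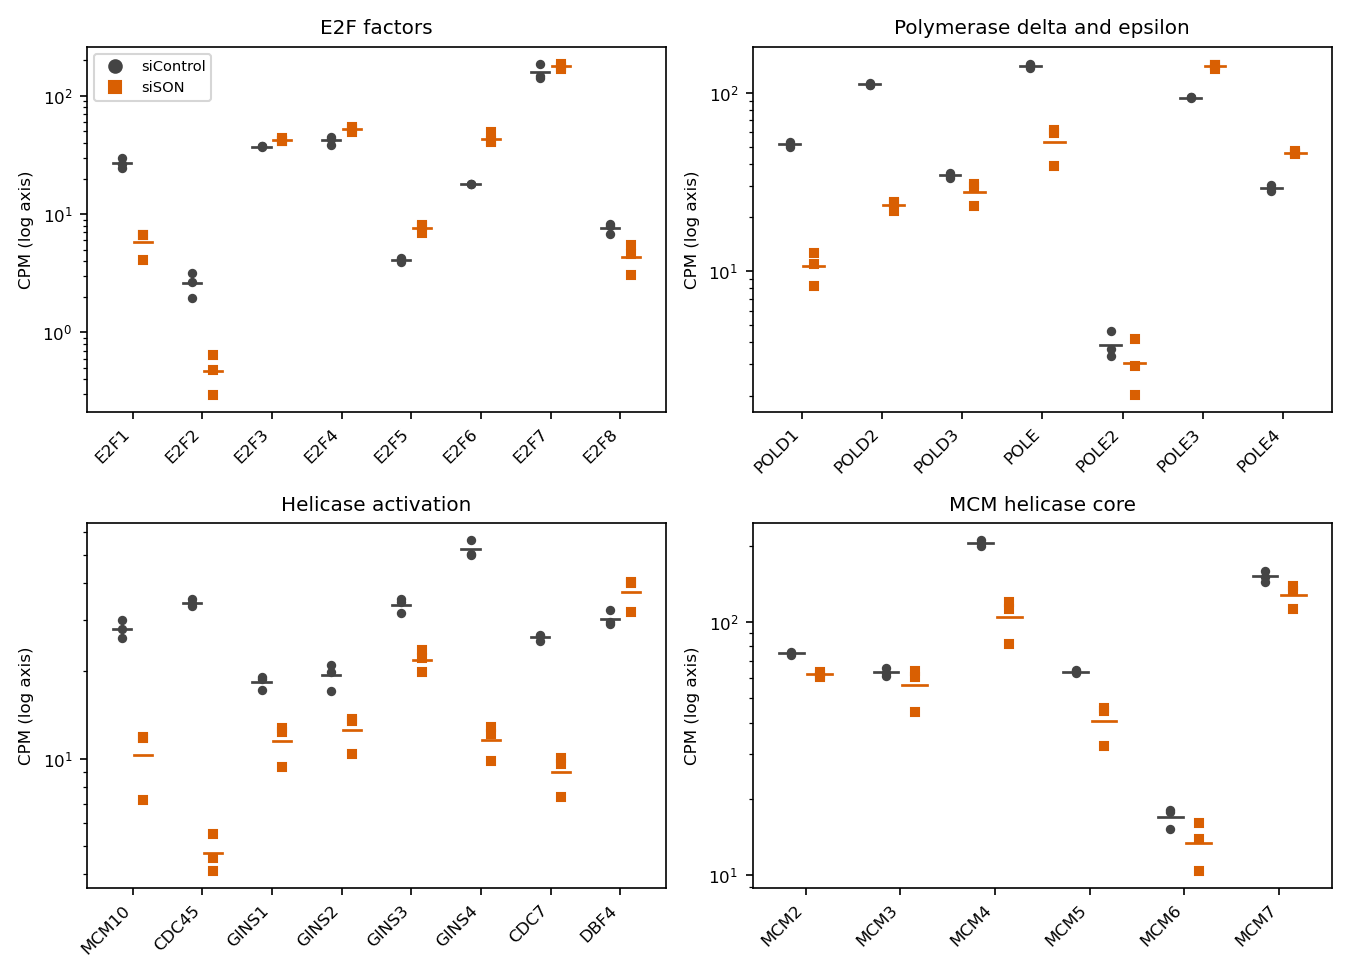
CPM on a log axis for the E2F factors, the subunits of polymerases delta and epsilon, the helicase activation genes and the MCM ring; circles are the 3 siControl and squares the 3 siSON libraries, and short lines are group means. CDC45 and GINS4 drop well below their controls, E2F6, POLE3 and POLE4 lie above theirs, and MCM4 lies farther below its controls than the other ring subunits.

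Polymerase alpha and primase make the RNA-DNA primers. POLA1, POLA2 and PRIM1 fell and PRIM2 was not called. PRIM1 (ENSG00000198056; chromosome 12, 56731596 to 56752373, 13 exons, minus strand), the catalytic primase subunit, had 9.54, 10.6 and 11.95 CPM in the siControl libraries and 1.83, 2.99 and 3.01 CPM in the siSON libraries. The siSON libraries were all below the controls, replicate 1 lowest, with a log2 fold change of -2.04 (standard error 0.18, adjusted p 1.28e-06 by edgeR). PRIM2, its large partner subunit, went from 27.5 ± 1.22 CPM in siControl to 27.7 ± 1.82 CPM in siSON (SD, n = 3), a log2 fold change of 0.013 (standard error 0.08, adjusted p 0.887 by edgeR) with overlapping groups, or -0.18 (edgeR adjusted p 0.0478) with library size alone. The PRIM1 to PRIM2 count ratio was 0.336, 0.407 and 0.428 in the siControl libraries and 0.0704, 0.108 and 0.102 in the siSON libraries. POLA1 (ENSG00000101868; chromosome X, 24693919 to 24996986, 37 exons, plus strand), the catalytic subunit of polymerase alpha, had 22.2, 23.1 and 24.4 CPM in the siControl libraries and 6.77, 11.7 and 12.5 CPM in the siSON libraries. POLA2 (ENSG00000014138; chromosome 11, 65261762 to 65305589, 18 exons, plus strand), its accessory subunit, had 8.24, 7.11 and 7.74 CPM in the siControl libraries and 2.43, 3.37 and 4.35 CPM in the siSON libraries. In both, replicate 1 was the lowest siSON library and the groups did not overlap, with log2 fold changes of -1.17 (standard error 0.19, adjusted p 0.000322 by edgeR) and -1.19 (standard error 0.18, adjusted p 0.000112 by edgeR). Without that library they were -0.93 and -0.98. POLA2 shares 2012 exonic bases with AP000944.2 and PRIM1 shares 362 with AC117378.1, both on the same strand, and how reads in shared exons were assigned is not given in the sources used here.

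For polymerase delta, which copies mainly the lagging strand, the 3 subunits among the 60 genes fell, POLD1 and POLD2 more than 4-fold. The fourth, POLD4, was read from a related list and was not called, at 8.86, 8.84 and 9.44 CPM in the siControl libraries and 7.84, 9.02 and 8.81 CPM in the siSON libraries (log2 fold change -0.081, standard error 0.10, adjusted p 0.477 by edgeR). POLD1 (ENSG00000062822; chromosome 19, 50384204 to 50418016, 27 exons, plus strand), the catalytic subunit, had 49.6, 53.2 and 51.2 CPM in the siControl libraries and 8.29, 12.7 and 10.9 CPM in the siSON libraries. POLD2 (ENSG00000106628; chromosome 7, 44114681 to 44124358, 12 exons, minus strand), the subunit that holds the others together, had 111, 114 and 111 CPM in the siControl libraries and 21.8, 24.0 and 24.5 CPM in the siSON libraries. Neither group pair came near to overlapping, and the log2 fold changes were -2.28 (standard error 0.13, adjusted p 5.35e-08 by edgeR) and -2.25 (standard error 0.06, adjusted p 8.39e-10 by edgeR), with 20.7% and 21.0% of the control means left. POLD3, an accessory subunit that contacts PCNA, went from 34.4 ± 1.15 CPM in siControl to 27.8 ± 4.15 CPM in siSON (SD, n = 3). Its log2 fold change was -0.31 (standard error 0.10, adjusted p 0.0166 by edgeR). It was -0.18 (edgeR adjusted p 0.0371) without siSON replicate 1, -0.51 with library size alone, and not past the threshold without siControl replicate 3 (-0.29, edgeR adjusted p 0.0512). The POLD2 to POLD3 count ratio was 3.31, 3.33 and 3.11 in the siControl libraries and 0.943, 0.816 and 0.794 in the siSON libraries.

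Polymerase epsilon, the leading-strand polymerase, showed opposite directions within one complex: its catalytic subunit POLE fell, the small histone-fold subunits POLE3 and POLE4 rose, and POLE2 was not called. POLE (ENSG00000177084; chromosome 12, 132623753 to 132687365, 49 exons, minus strand) had 143, 138 and 146 CPM in the siControl libraries and 38.6, 61.7 and 59.2 CPM in the siSON libraries. All siSON values were below the controls by more than 2-fold, replicate 1 lowest (log2 fold change -1.42, standard error 0.15, adjusted p 2.33e-05 by edgeR). POLE4 (ENSG00000115350; chromosome 2, 74958492 to 74970128, 4 exons, plus strand) had 29.3, 28.1 and 30.5 CPM in the siControl libraries and 45.4, 46.2 and 47.1 CPM in the siSON libraries, higher in every siSON library (log2 fold change 0.66, standard error 0.06, adjusted p 2.80e-06 by edgeR). POLE3, which also belongs to a chromatin remodelling complex, went from 94.1 ± 0.967 CPM in siControl to 141 ± 4.28 CPM in siSON (SD, n = 3), at a log2 fold change of 0.59 (standard error 0.05, adjusted p 1.13e-06 by edgeR), 0.39 with library size alone and 0.33 with cyclic loess. POLE2 went from 3.86 ± 0.675 CPM in siControl to 3.04 ± 1.08 CPM in siSON (SD, n = 3), with a log2 fold change of -0.35 (standard error 0.24, adjusted p 0.205 by edgeR), but was called lower without siSON replicate 3 (-0.64, edgeR adjusted p 0.0224). Without siSON replicate 1 the value for POLE2 was -0.11 (edgeR adjusted p 0.633). The POLE to POLE3 count ratio was 1.51, 1.49 and 1.54 in the siControl libraries and 0.270, 0.452 and 0.411 in the siSON libraries.

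The clamp loader, which places PCNA on DNA, was mixed. RFC1 (ENSG00000035928; chromosome 4, 39287456 to 39366375, 25 exons, minus strand), the large subunit, had 77.2, 81.4 and 86.3 CPM in the siControl libraries and 121, 116 and 129.8 CPM in the siSON libraries. It was higher in every siSON library (log2 fold change 0.58, standard error 0.06, adjusted p 7.66e-06 by edgeR, 0.38 with library size alone and 0.34 with cyclic loess). RFC3 (ENSG00000133119; chromosome 13, 33818049 to 33966558, 9 exons, plus strand) had 37.5, 35.9 and 37.9 CPM in the siControl libraries and 14.6, 18.7 and 19.2 CPM in the siSON libraries. Its fall left no overlap, replicate 1 lowest (log2 fold change -1.08, standard error 0.10, adjusted p 2.03e-06 by edgeR, and -0.95 without siSON replicate 1). RFC5 had a log2 fold change of -0.27 (standard error 0.09, adjusted p 0.0166 by edgeR), -0.15 (edgeR adjusted p 0.0380) without siSON replicate 1, -0.47 with library size alone and -0.44 with cyclic loess. RFC2 and RFC4 were not called at log2 fold changes of -0.15 (standard error 0.09, adjusted p 0.153 by edgeR) and -0.015 (standard error 0.08, adjusted p 0.875 by edgeR). Library size alone gave both a call (-0.35 and -0.21, edgeR adjusted p 0.00687 and 0.0406), and cyclic loess gave one to RFC2 (-0.26, limma adjusted p 0.0230). Without siSON replicate 1 the values were -0.037 for RFC2 and 0.061 for RFC4 (edgeR adjusted p 0.638 and 0.493).

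PCNA and the 2 enzymes that finish Okazaki fragments all fell. LIG1 (ENSG00000105486; chromosome 19, 48115445 to 48170603, 28 exons, minus strand), the ligase that seals them, had 113, 106 and 109.6 CPM in the siControl libraries and 10.4, 17 and 12.7 CPM in the siSON libraries. All siSON libraries kept only a small part of the control level, 12.2% on average, with a log2 fold change of -3.04 (standard error 0.15, adjusted p 7.77e-08 by edgeR). FEN1, the nuclease that trims the fragments' flaps and a gene with a single intron in its representative transcript, went from 126 ± 2.14 CPM in siControl to 80.6 ± 9.31 CPM in siSON (SD, n = 3), at a log2 fold change of -0.65 (standard error 0.08, adjusted p 1.72e-05 by edgeR). PCNA itself, the most abundant of the 60 mRNAs per kilobase of exon, went from 345 ± 16.6 CPM in siControl to 236 ± 11.9 CPM in siSON (SD, n = 3), at a log2 fold change of -0.55 (standard error 0.06, adjusted p 4.82e-06 by edgeR), and -0.90 with cyclic loess.

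The fork protection genes also fell, and they are the ones that link the fork to the replication checkpoint. CLSPN (ENSG00000092853; chromosome 1, 35720218 to 35769967, 25 exons, minus strand), claspin, had 70.5, 69.7 and 76.7 CPM in the siControl libraries and 11.9, 25.1 and 25.6 CPM in the siSON libraries. Replicate 1 was well below the other siSON libraries, and all 3 were below the controls (log2 fold change -1.79, standard error 0.24, adjusted p 0.000111 by edgeR). TIMELESS (ENSG00000111602; chromosome 12, 56416373 to 56449403, 29 exons, minus strand) had 135, 125 and 131 CPM in the siControl libraries and 37.0, 50.4 and 44.3 CPM in the siSON libraries, with the same order of groups (log2 fold change -1.57, standard error 0.10, adjusted p 1.02e-07 by edgeR). TIPIN, its binding partner, went from 6.91 ± 0.457 CPM in siControl to 4.70 ± 0.367 CPM in siSON (SD, n = 3), at a log2 fold change of -0.56 (standard error 0.12, adjusted p 0.00116 by edgeR), a call that cyclic loess did not give (-0.25, limma adjusted p 0.0684). It shares 579 exonic bases with the pseudogene RPL9P25.

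Nucleotide supply fell in all 4 genes. TK1 (ENSG00000167900; chromosome 17, 78174075 to 78187233, 7 exons, minus strand), thymidine kinase of the salvage pathway, had 144, 136 and 147 CPM in the siControl libraries and 9.56, 15.7 and 16.7 CPM in the siSON libraries. The siSON libraries kept 9.84% of the control mean on average, replicate 1 the least, with a log2 fold change of -3.35 (standard error 0.18, adjusted p 2.16e-07 by edgeR), the second-largest fall of the 60 genes. TYMS (ENSG00000176890; chromosome 18, 657604 to 673578, 7 exons, plus strand), thymidylate synthase, had 265, 258 and 281 CPM in the siControl libraries and 61.8, 99.3 and 109.8 CPM in the siSON libraries. RRM2 (ENSG00000171848; chromosome 2, 10120698 to 10131419, 11 exons, plus strand), the S-phase subunit of ribonucleotide reductase, had 146, 164 and 162 CPM in the siControl libraries and 26.2, 58.3 and 62.7 CPM in the siSON libraries. In both, all siSON libraries were below the controls and replicate 1 was far lower than the other siSON libraries, and the log2 fold changes were -1.57 (standard error 0.18, adjusted p 3.61e-05 by edgeR) and -1.68 (standard error 0.27, adjusted p 0.000348 by edgeR). RRM1, the partner subunit, went from 318 ± 19.3 CPM in siControl to 170.1 ± 31.5 CPM in siSON (SD, n = 3), at a log2 fold change of -0.90 (standard error 0.12, adjusted p 0.000120 by edgeR). TYMS shares 967 exonic bases with ENOSF1 on the other strand and RRM2 shares 1077 with AC007240.1 on the same strand.

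The gene structures of the 60 genes, which the choice of genes did not use, were compared by call, since SON acts in splicing. For each gene the introns of 1 representative GENCODE 29 transcript were taken. The 21 genes that fell at least 2-fold had a median shortest intron of 88 bases, the 20 that fell less 201.5, the 8 not called 399 and the 11 that rose 414. Over all 13008 protein-coding genes tested, of which 12699 had an intron, the medians were 122 bases for genes at least 2-fold lower, 233 for those lower by less, 329 for those not called and 287.5 for those higher. The shortest introns were thus shortest in the group with the largest falls, both among the 60 genes and over all protein-coding genes. An intron under 100 bases, a limit set after the values were seen, was found in 15 of 21 genes with a 2-fold fall (71.4%), 5 of 20 with a smaller fall, 3 of 8 not called and 3 of 11 that rose. Over all protein-coding genes with introns the shares were 41.1%, 26.9%, 21.1% and 21.1% in the same order. The 26 genes with such an intron had a median log2 fold change of -1.43 and the other 34 of -0.35; over all protein-coding genes tested with introns the medians were -0.22 for 3291 and 0.10 for 9408. Exceptions stood on both sides: RFC4 with a shortest intron of 70 bases was not called and POLE3 with one of 87 bases rose, while E2F2, TYMS and RFC3 fell at least 2-fold with shortest introns of 765, 512 and 400 bases.

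Across the 60 genes, log2 fold change and shortest intron had a Spearman correlation of 0.42 and a Pearson correlation of 0.42 (against log10 length); over 12699 protein-coding genes these were 0.15 and 0.14. GC content of the transcript gave -0.32 and -0.34 across the 60, and -0.21 and -0.26 over 12695 genes. Spearman correlations with other features, across the 60 and over all protein-coding genes, were 0.30 and 0.25 for median intron, 0.14 and 0.24 for total intron length, -0.17 and 0.039 for intron number, and 0.092 and 0.32 for mean expression level. These are across genes measured in the same 6 libraries, which are not independent replicates, so no p is given. Splicing itself was not analysed here, since the values are totals per gene.

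**Figure D4:**
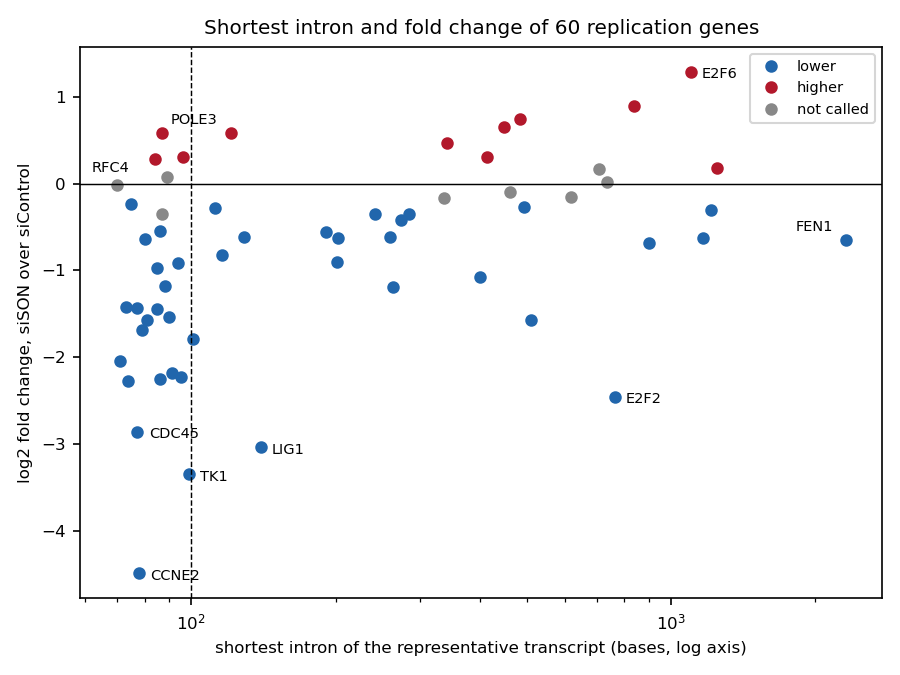
Log2 fold change (siSON over siControl) against the shortest intron of the representative transcript in bases (log axis) for the 60 genes, coloured by call; the dashed line marks 100 bases. Most points under -1 lie left of the line, where the median is -1.43, while LIG1, E2F2 and others fell without so short an intron.

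Related genes outside the 60 were read from lists chosen, like the 60, with earlier results of these data known. In the list of upstream RB-E2F control, 29 genes were tested, 15 fell (51.7%) and 8 rose (27.6%), against 36.5% and 35.2% of all genes tested. The median log2 fold change of the list was -0.36, against -0.027 over all genes. With library size alone 17 fell and 6 rose, with a median of -0.55. Over all 16591 genes 7351 then fell and 4441 rose, with a median of -0.22. CDK6, a cyclin D partner, went from 28.2 ± 2.58 CPM in siControl to 125 ± 2.71 CPM in siSON (SD, n = 3), at a log2 fold change of 2.14 (standard error 0.07, adjusted p 2.02e-09 by edgeR), and CDKN1B, the p27 inhibitor of cyclin E and CDK2, from 106 ± 1.19 CPM in siControl to 259.6 ± 7.19 CPM in siSON (SD, n = 3), at a log2 fold change of 1.29 (standard error 0.05, adjusted p 3.37e-09 by edgeR). CDKN1A, the p21 inhibitor, fell from 2095 ± 89.1 CPM in siControl to 919 ± 46.0 CPM in siSON (SD, n = 3), at a log2 fold change of -1.19 (standard error 0.05, adjusted p 1.01e-08 by edgeR). So did CCND1, cyclin D1 (-0.61, standard error 0.04, adjusted p 2.24e-07 by edgeR), CDK2, the cyclin E partner (-1.12, standard error 0.14, adjusted p 8.67e-05 by edgeR), and TFDP1, the DP partner of E2F1 to E2F6 (-0.74, standard error 0.08, adjusted p 5.11e-06 by edgeR). The inhibitors p27 and p21 therefore moved in opposite directions.

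Among 42 other replication fork and licensing genes, 24 fell (57.1%) and 9 rose (21.4%), against 36.5% and 35.2% of all genes tested. Their median was -0.39, against -0.027 over all genes. With library size alone 31 fell and 5 rose, with a median of -0.58, against -0.22 over all genes. DNMT1, which copies DNA methylation behind the fork, had a log2 fold change of -2.20 (standard error 0.07, adjusted p 1.32e-09 by edgeR), and RNASEH2C, a subunit of an enzyme that removes ribonucleotides from DNA, one of -3.04 (standard error 0.11, adjusted p 2.60e-09 by edgeR). TOP1, which relieves torsion ahead of the fork, rose (1.33, standard error 0.05, adjusted p 4.40e-09 by edgeR), as did CUL4A, of the ubiquitin ligase that destroys CDT1 (0.92, standard error 0.05, adjusted p 3.52e-08 by edgeR), and, slightly, RPA1 of the single-strand binding complex (0.25, standard error 0.06, adjusted p 0.00222 by edgeR). Of 29 other nucleotide synthesis genes tested, 15 fell (51.7%) and 8 rose (27.6%), with a median of -0.16. With library size alone 18 fell and 7 rose, with a median of -0.35, against -0.22 over all genes. With cyclic loess 17 fell and 6 rose, with a median of -0.29, against 0.038 over all genes. The 4 with the smallest adjusted p all fell: SHMT2 (-1.94, standard error 0.05, adjusted p 8.39e-10 by edgeR), IMPDH2 (-2.68, standard error 0.10, adjusted p 3.65e-09 by edgeR), DCK (-2.64, standard error 0.10, adjusted p 4.22e-09 by edgeR) and CAD (-1.67, standard error 0.07, adjusted p 6.60e-09 by edgeR), each given as its log2 fold change.

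Of the 25 G2 and mitosis markers, 9 rose (36%) and 8 fell (32%), near the 35.2% and 36.5% of all genes tested. Their median was 0.0021, against -0.027 over all genes. With library size alone 4 rose and 12 fell, with a median of -0.19, against -0.22 over all genes. With cyclic loess 5 rose and 12 fell, with a median of -0.19, against 0.038 over all genes. The median log2 ratio of these markers to their siControl mean was -0.31 in siSON replicate 1, 0.0996 in replicate 2 and 0.13 in replicate 3. Without siSON replicate 1, 12 of the markers rose and 8 fell, with a median of 0.14. Over all 17080 genes then tested 5814 rose and 5969 fell, with a median of -0.047. KIF20A fell (-1.01, standard error 0.12, adjusted p 2.60e-05 by edgeR), and TPX2 (0.52, standard error 0.07, adjusted p 4.54e-05 by edgeR), BIRC5 (0.54, standard error 0.08, adjusted p 0.000111 by edgeR) and BUB1 (0.74, standard error 0.11, adjusted p 0.000113 by edgeR), all of the mitotic spindle or its checkpoint, rose. Of 15 replication stress and checkpoint genes, 4 rose (26.7%) and 4 fell (26.7%), against 35.2% and 36.5% of all genes, with a median of 0.091. With library size alone their median was -0.11, above the -0.22 of all genes. With cyclic loess it was -0.11, below the 0.038 of all genes. Without siSON replicate 1 it was 0.041, against -0.047 over all genes. WEE1, the kinase that holds CDK1 inactive, rose (1.37, standard error 0.10, adjusted p 6.37e-07 by edgeR). RAD1, a subunit of a checkpoint clamp (-0.97, standard error 0.08, adjusted p 6.87e-07 by edgeR), and ATRIP, the partner of ATR (-1.27, standard error 0.11, adjusted p 1.64e-06 by edgeR), fell. The difference between the lists was not tested.

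**Figure D5:**
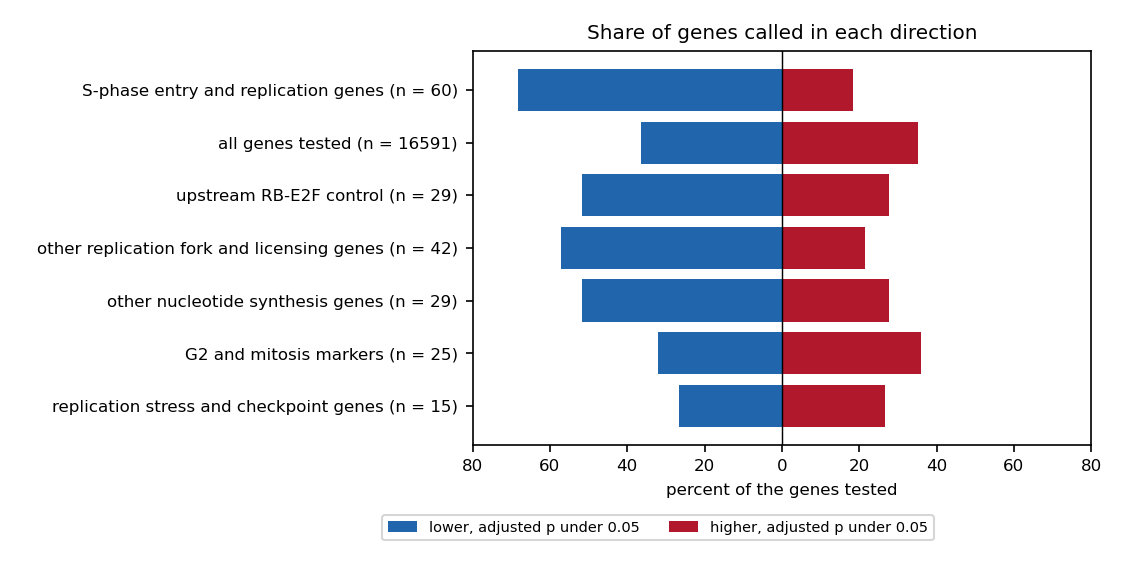
Share of genes called lower (blue, to the left) and higher (red, to the right) at an adjusted p of 0.05, in percent of the genes tested, for the 60 genes, all genes tested and 5 related lists. The 60 genes have 68.3% lower and 18.3% higher, beside 36.5% and 35.2% of all genes tested.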

How the data were processed

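The deposited table holds raw counts, whole numbers without normalization, with a row per gene and a column per library. The submitters' processing notes name cutadapt 1.16, STAR 2.5.2a, featureCounts 1.6.2 and DESeq2 1.28.1 with hg38, without roles; strand setting and multi-mapping treatment are not given in the sources used here. Counts of genes that share exons with others (25 of the 60) or have pseudogenes (11) are therefore uncertain. All 58735 identifiers matched GENCODE release 29 (GRCh38), which gave positions and introns.

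The counts were fitted with edgeR 4.0.16 (R 4.3.3): filterByExpr (minimum count 10), TMM scaling, robust quasi-likelihood fit on group alone, Benjamini-Hochberg over all 16591 genes, threshold 0.05. Standard errors are the absolute log2 fold change over the square root of F. On simulated counts for the siSON against siControl comparison (16591 genes), 75 of 100 genes changed 2-fold and 59 of 100 changed 1.5-fold were recovered, with 17 false calls. No other genes were changed, and rises were as many as falls, whereas 71.7% of genes tested were called in the data. Recovery in the data may therefore differ. Alternatives were DESeq2 1.42.0, limma-voom (limma 3.58.1), RLE factors, library size alone, cyclic loess, no filter, a mean count of at least 50, the replicate number as a block, and leaving out each library.

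The genes and lists were chosen with earlier results of these data known. By rule, values in every library are given for SON, for genes changed at least 2-fold and for the largest called rise and fall of each role. Of each related list the 4 genes with the smallest adjusted p are named, with TFDP1, CDKN1A, CDK2 and RPA1, by fold change; 1 gene that this rule selects is not reported here. A count of 0 allows up to 3 counts, 0.0430 to 0.0550 CPM of the library total, for counting error alone. No replicate pair agreed within sampling noise (chi-square per degree of freedom 6.68 to 23.6).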

Additional observations from a re-analysis of the deposited data

How the results depend on the processing

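Of the 52 genes called changed, 45 kept their direction and their call under all 14 alternatives, 38 of them lower and 7 higher; the exceptions were E2F3, E2F4, ORC4, MCM6, DBF4, POLD3 and TIPIN, given with their values above. The number of the 60 genes called (52) ranged from 49 to 54, the number lower (41) from 39 to 46 and the number higher (11) from 7, with library size alone, to 12. Over all genes the number called (11888) ranged from 10226 to 12604. The number lower (6054) ranged from 5156 to 7351 and the number higher (5834) from 4441 to 6052, with 13136 to 29256 genes tested. Changes of at least 2-fold among the 60 genes (22) numbered from 19, without siSON replicate 1, to 26, with library size alone. Over all genes such changes (4853) numbered from 3355 to 5634. The motif share of 50.9% became 92.5% with GGCGC, a shorter string that only TTTGGCGC of the motifs contains. The sign turned for genes near 0. With library size alone the log2 fold changes were -0.014 for E2F3, -0.028 for E2F7, -0.13 for ORC5 and -0.18 for PRIM2; with cyclic loess -0.12 for E2F7, -0.0036 for PRIM2 and 0.0014 for RFC4; and with a mean count of at least 50, -0.044 for PRIM2. Leaving out 1 library gave -0.023 to 0.13 for ORC5, -0.042 to 0.073 for PRIM2 and -0.071 to 0.061 for RFC4. The cause was not tested.

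The replicate numbers are shared by both groups. Deviations of same-numbered libraries correlated weakly (0.19, 0.046 and 0.12 for replicates 1 to 3), but each value was above those for different numbers (-0.14 to 0.029). The labels do not say that the numbers pair the libraries, and the main fit did not use them. Whether same-numbered libraries share a batch was not tested. Fitting the replicate block gave 54 calls among the 60 genes (12 higher, 42 lower), adding E2F7 and POLE2, and 12313 of all genes in place of 11888. The siSON levels of E2F2 and CCNE2 rested on 15 to 33 and 34 to 69 counts.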
